A study of Rattus norvegicus with 6 samples.

Results

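The small leucine-rich proteoglycans (SLRPs) described here are 10 genes taken by symbol, Bgn, Dcn, Aspn, Ecm2, Lum, Fmod, Prelp, Omd, Ogn and Podn, out of 17833 genes in the expression table. All 10 were present and all 10 passed the filter on low expression. Their pulmonary vein (PV) levels were compared between 3 rats with bilateral pulmonary vein banding (BPVB group) and 3 rats with a sham operation (sham group). All were wild-type Sprague-Dawley rats, operated on at postnatal day 1 and sampled at postnatal day 21 (P21). The sham rats went through the same operation but received no band. Each library held the PV tissue of 1 rat, from the upper lobe of its right lung, so the values are averages over all cells of the vein wall, its sleeve of heart muscle and any lung tissue taken with it. In such bulk samples, fewer cells of a type and less RNA per cell cannot be told apart.

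SLRPs are secreted matrix proteins with a small core of leucine-rich repeats, and many carry glycosaminoglycan chains. They bind to collagen fibrils and control how the fibrils assemble and how wide they grow, and several also hold growth factors of the TGF-beta family in the matrix or, once released, signal through Toll-like receptors. In blood vessels they are made mainly by adventitial fibroblasts and by smooth muscle cells. They are grouped by sequence. Class I holds biglycan (Bgn), decorin (Dcn), asporin (Aspn) and Ecm2. Class II holds lumican (Lum), fibromodulin (Fmod), Prelp and osteomodulin (Omd), class III holds osteoglycin (Ogn), and class V holds podocan (Podn).

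The 10 genes lie on 5 chromosomes, and 8 of them lie beside or near another SLRP gene. In the rat assembly GRCr8, Dcn and Lum stand side by side on chromosome 7, Prelp and Fmod on chromosome 13, and Ogn, Omd, Aspn and Ecm2 in a row on chromosome 17, with a ribosomal protein pseudogene between Aspn and Ecm2. Bgn is on chromosome X and Podn on chromosome 5. RefSeq promoter sequences were found for 7 of the 10 genes. The 250 bases before the start site of the 4 neighbours on chromosome 17, which show a set of adjacent SLRP genes, and of Lum and Fmod, which were both lower after banding, are shown 5′ to 3′ on the strand of the gene. Capitals mark matches, on either strand, to the TATA box (TATAAA), the CCAAT box (CCAAT), the GC box (GGGCGG), the AP-1 site (TGANTCA) and the SMAD box (CAGAC).
Ogn, chr17:15258996-15259245, minus strand: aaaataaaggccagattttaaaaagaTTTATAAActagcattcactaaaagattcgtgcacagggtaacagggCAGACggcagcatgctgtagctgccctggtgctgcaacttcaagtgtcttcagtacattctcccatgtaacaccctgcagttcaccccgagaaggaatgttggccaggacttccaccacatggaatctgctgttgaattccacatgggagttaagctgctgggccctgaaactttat
Omd, chr17:15274871-15275120, minus strand: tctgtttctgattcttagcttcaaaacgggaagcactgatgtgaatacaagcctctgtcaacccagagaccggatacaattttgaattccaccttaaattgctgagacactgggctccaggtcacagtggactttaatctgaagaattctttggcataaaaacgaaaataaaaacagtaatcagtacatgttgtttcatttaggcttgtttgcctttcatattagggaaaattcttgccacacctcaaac
Aspn, chr17:15310470-15310719, minus strand: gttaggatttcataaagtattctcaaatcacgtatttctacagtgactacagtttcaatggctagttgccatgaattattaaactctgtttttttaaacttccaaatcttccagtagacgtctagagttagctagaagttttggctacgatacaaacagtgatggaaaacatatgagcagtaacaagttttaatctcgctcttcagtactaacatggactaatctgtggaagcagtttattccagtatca
Ecm2, chr17:15358856-15359105, minus strand: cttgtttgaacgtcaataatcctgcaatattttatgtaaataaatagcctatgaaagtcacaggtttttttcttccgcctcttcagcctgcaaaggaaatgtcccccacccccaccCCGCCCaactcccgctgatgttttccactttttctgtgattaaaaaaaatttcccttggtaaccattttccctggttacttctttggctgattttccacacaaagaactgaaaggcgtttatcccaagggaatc
Lum, chr7:34245456-34245705, plus strand: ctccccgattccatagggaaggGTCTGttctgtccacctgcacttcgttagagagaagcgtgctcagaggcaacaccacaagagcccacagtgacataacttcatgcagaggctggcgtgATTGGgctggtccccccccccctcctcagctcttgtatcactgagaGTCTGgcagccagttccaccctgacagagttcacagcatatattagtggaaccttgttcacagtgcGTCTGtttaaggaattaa
Fmod, chr13:48045317-48045566, plus strand: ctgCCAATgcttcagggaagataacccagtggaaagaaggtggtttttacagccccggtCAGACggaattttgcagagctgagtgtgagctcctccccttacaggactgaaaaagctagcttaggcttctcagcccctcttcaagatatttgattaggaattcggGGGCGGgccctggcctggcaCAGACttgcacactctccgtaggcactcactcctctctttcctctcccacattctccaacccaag

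The promoter letters shared little among these genes. Lum held 3 SMAD boxes and Fmod held 2, Ogn held 1, and no match was found in the windows of Omd, Aspn or Ecm2. Of all 33469 RefSeq rat promoters, 42.9% held a SMAD box in a window of the same length. The 2 TATA matches of Ogn overlap each other on opposite strands, and 12.9% of all promoters held such a match. Lum and Fmod each held 1 CCAAT box, found in 34% of all promoters, and Fmod and Ecm2 each held 1 GC box, found in 30.5%. No AP-1 match was found in the 7 windows, and 6.34% of all promoters held one. The GC content was 34.8% for Aspn, 38.8% for Omd, 41.6% for Ecm2, 46% for Ogn and 52.8% for both Lum and Fmod, against a median of 51.2% over all promoters. Podn, which is not printed, stood apart with a GC content of 77.6% and 3 GC boxes. A match is a description of the letters and does not show that a factor binds there.

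Expression was deposited as FPKM, fragments scaled to the length of each gene and to library depth, which lets levels of different genes be set side by side. The whole numbers of fragments behind the values were recovered, and the library totals lay between 23439506 and 29725808. The SLRP genes were deeply covered, with 932 to 76260 fragments per gene and library. Groups were compared on log2(FPKM + 0.5) with limma, two-sided, and p-values were adjusted over all 15150 genes tested. An adjusted p under 0.05 is called a change, and DEGs also pass an absolute log2 fold change of 1. The labels place each library in its group, and the study took the rats of each group at random.

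Of the 10 SLRP genes, 5 were higher in the BPVB group (Bgn, Aspn, Prelp, Omd and Ogn), 3 were lower (Dcn, Lum and Fmod) and 2 did not pass the test (Ecm2 and Podn). Over all genes tested, 17.2% were called higher and 14.3% lower. The libraries of the groups did not overlap for the same 5 higher and the same 3 lower SLRP genes, while 25.2% of all genes were without overlap and higher and 20.5% without overlap and lower. Bgn was the only DEG among the 10, where 2.24% of all genes were higher DEGs and 1.03% were lower DEGs. These shares depend on the fit, with 340 higher and 156 lower DEGs here, 715 and 407 with limma-voom on the recovered fragments, 611 and 290 with a pseudocount of 0.1, and 227 and 98 with a pseudocount of 1, while Bgn was the only DEG of the 10 in each. The median log2 fold change was 0.15 over the 10 genes and 0.02 over all genes tested. Each class with more than 1 gene held members that moved in opposite directions.

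**Figure D1:**
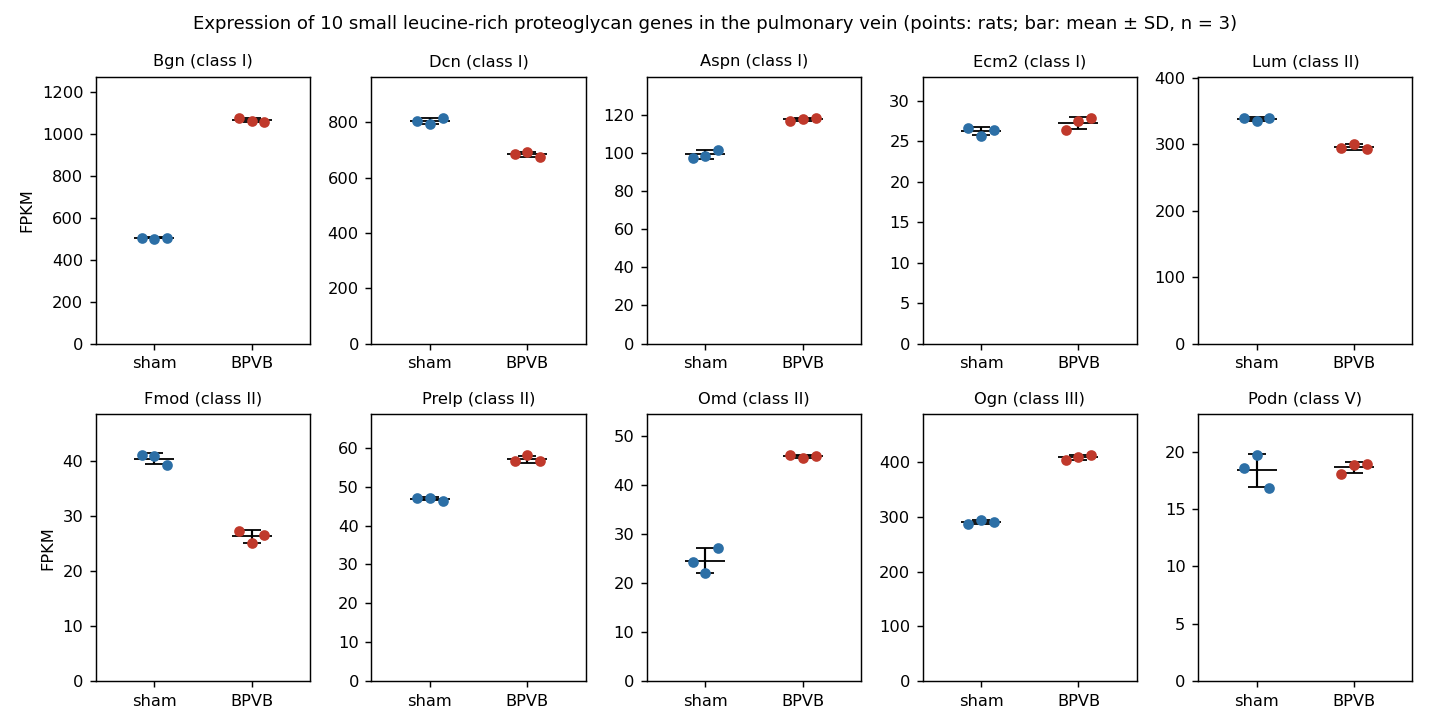
FPKM of the 10 SLRP genes in the PVs of sham and BPVB rats, 1 panel per gene with its own axis from 0, with 1 point per rat and the mean ± SD (n = 3) as a bar. The points of the groups are apart for 8 genes, with the widest gap for Bgn, and overlap for Ecm2 and Podn.

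Class I proteoglycans moved in opposite directions. Biglycan, which binds type I collagen and TGF-beta and can act as a danger signal when released, had an FPKM of 1076, 1062 and 1055 in the BPVB rats and of 505, 501 and 505 in the sham rats. Every BPVB library was thus far above every sham library, with a gap of 549.8 FPKM between the groups. The level was 1064 ± 10.8 (SD, n = 3) against 504 ± 2.61 FPKM, a 2.11-fold rise (log2 fold change 1.08, SE 0.020, limma adjusted p = 3e-09, Bgn). Between 28531 and 76260 fragments stood behind each of these values. Taken alone, the exact permutation test gave p = 0.1, two-sided, the smallest that 3 libraries against 3 allow.

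Decorin, the closest relative of biglycan, which limits the lateral growth of collagen fibrils and holds TGF-beta, went the other way. The FPKM of Dcn was 684, 692 and 676 in the BPVB rats and 804, 795 and 817 in the sham rats. All 3 BPVB libraries were below all sham libraries, and the gap of 103 FPKM between the groups was wider than the whole range within either. The fall was from 805 ± 10.9 to 684 ± 7.97 FPKM (log2 fold change -0.24, SE 0.022, limma adjusted p = 5.7e-05), or to 0.849 times the sham level. In the sham group Dcn was thus above Bgn, and in the BPVB group Bgn was above Dcn. The ratio of Bgn to Dcn within a library was 1.57, 1.54 and 1.56 after banding and 0.628, 0.629 and 0.618 after sham surgery. On the log2 scale this ratio differed by 1.32 between the groups, with an SD of 0.017 within the BPVB group and 0.014 within the sham group.

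Asporin, a class I protein that carries no glycosaminoglycan chain and inhibits TGF-beta, had an FPKM of 117, 118 and 119 in the BPVB rats and of 97.6, 98.4 and 102 in the sham rats. The groups did not overlap, and the BPVB libraries lay closer together. The level of Aspn rose 1.19-fold, from 99.3 ± 2.18 to 118 ± 0.78 FPKM (log2 fold change 0.25, SE 0.029, limma adjusted p = 0.00028). Ecm2, a matrix protein related to decorin, had an FPKM of 26.4, 27.5 and 27.9 in the BPVB rats and of 26.7, 25.7 and 26.4 in the sham rats. Its groups overlapped, and the difference did not pass the test (log2 fold change 0.05, SE 0.044, limma adjusted p = 0.39). The 95% interval of this difference ran from 0.969-fold to 1.11-fold, and its upper end was under the 1.19-fold rise of Aspn, the smallest rise that was called.

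Class II was likewise split. Lumican, a keratan sulfate proteoglycan that binds fibrillar collagen, had an FPKM of 295, 301 and 293 in the BPVB rats and of 340, 336 and 340 in the sham rats. The libraries of the groups were apart by 34.5 FPKM. Lum fell from 339 ± 2.51 to 296 ± 4.26 FPKM, 0.875 times the sham level (log2 fold change -0.19, SE 0.023, limma adjusted p = 0.00031).

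Fibromodulin, which binds type I collagen near the site that lumican uses and modulates its crosslinking, had an FPKM of 27.3, 25.1 and 26.5 in the BPVB rats. In the sham rats its FPKM was 41.1, 40.9 and 39.3. The lowest sham library was 12 FPKM above the highest BPVB library. Fmod had the largest fall of the 10 genes, from 40.4 ± 0.99 to 26.3 ± 1.12 FPKM, 0.650 times the sham level (log2 fold change -0.61, SE 0.046, limma adjusted p = 1.7e-05).

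Prelp, which anchors basement membranes to connective tissue by binding heparan sulfate and collagen, had an FPKM of 56.5, 58.1 and 56.5 in the BPVB rats and of 47.1, 47.2 and 46.4 in the sham rats. All BPVB libraries were above all sham libraries. Prelp rose 1.22-fold, from 46.9 ± 0.42 to 57.1 ± 0.94 FPKM (log2 fold change 0.28, SE 0.034, limma adjusted p = 0.00029).

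Osteomodulin, best known from bone and tooth, where it binds collagen fibrils, had an FPKM of 46.1, 45.6 and 45.9 in the BPVB rats and of 24.3, 22.1 and 27.2 in the sham rats. The BPVB libraries were almost equal, whereas the sham libraries were spread more widely, with a coefficient of variation of 10.5%, the highest of any SLRP gene in either group. Omd rose 1.87-fold, from 24.5 ± 2.58 to 45.8 ± 0.27 FPKM (log2 fold change 0.89, SE 0.069, limma adjusted p = 2e-05). Its size was second to that of Bgn among the 10 genes, and 932 to 2459 fragments stood behind each value. The 95% interval of the rise ran from 1.67-fold to 2.07-fold. The ratio of Omd to Fmod within a library was 1.69, 1.82 and 1.73 after banding and 0.592, 0.539 and 0.692 after sham surgery, so that the order of these class II genes was turned around in every library.

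Osteoglycin, the class III member also called mimecan, which regulates collagen fibrils and is abundant in vessel walls, had an FPKM of 404, 411 and 413 in the BPVB rats and of 288, 295 and 290 in the sham rats. The groups were apart by 109.7 FPKM, many times the range within either. Ogn rose 1.41-fold, from 291 ± 3.41 to 409 ± 4.70 FPKM (log2 fold change 0.49, SE 0.023, limma adjusted p = 1e-06). Podocan, the class V member, known to restrain smooth muscle cell growth, had an FPKM of 18.1, 18.9 and 18.9 in the BPVB rats and of 18.6, 19.7 and 16.8 in the sham rats. The BPVB values of Podn lay within the sham range. No difference was detected (log2 fold change 0.02, SE 0.065, limma adjusted p = 0.83), and the 95% interval of the difference ran from 0.917-fold to 1.12-fold. The sign of the Podn value changed when sham rat 3 was left out (-0.04).

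The order of the levels differed between the groups at 3 places. In the sham group the order from highest to lowest FPKM was Dcn, Bgn, Lum, Ogn, Aspn, Prelp, Fmod, Ecm2, Omd and Podn. In the BPVB group it was Bgn, Dcn, Ogn, Lum, Aspn, Prelp, Omd, Ecm2, Fmod and Podn. Bgn and Dcn, Lum and Ogn, and Fmod and Omd had thus changed places. Neighbours in the order did not overlap between libraries of a group, except Ecm2 with Omd in the sham group and Ecm2 with Fmod in the BPVB group. From the highest to the lowest gene the mean level fell 43.9-fold in the sham group and 57.2-fold in the BPVB group.

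Added up, the SLRP transcripts were higher in the BPVB group, and Bgn accounted for the whole of the gap. The summed FPKM of the 10 genes was 2751, 2759 and 2731 in the BPVB rats and 2192, 2180 and 2211 in the sham rats, a ratio of 1.25. Without Bgn, the sum was 1683 ± 12.1 FPKM in the BPVB group and 1691 ± 13.5 in the sham group, and the libraries overlapped. The rises of Ogn, Omd, Aspn and Prelp and the falls of Dcn, Lum and Fmod were thus of about equal size in total. The share of Bgn in the summed FPKM was 38.7% ± 0.33 in the BPVB group and 22.9% ± 0.098 in the sham group. The share of Dcn was 24.9% ± 0.17 against 36.7% ± 0.24, that of Lum 10.8% ± 0.11 against 15.4% ± 0.060, and that of Ogn 14.9% ± 0.22 against 13.3% ± 0.22. Of all counted fragments, the 10 genes took 0.636% in the BPVB group and 0.488% in the sham group.

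**Figure D2:**
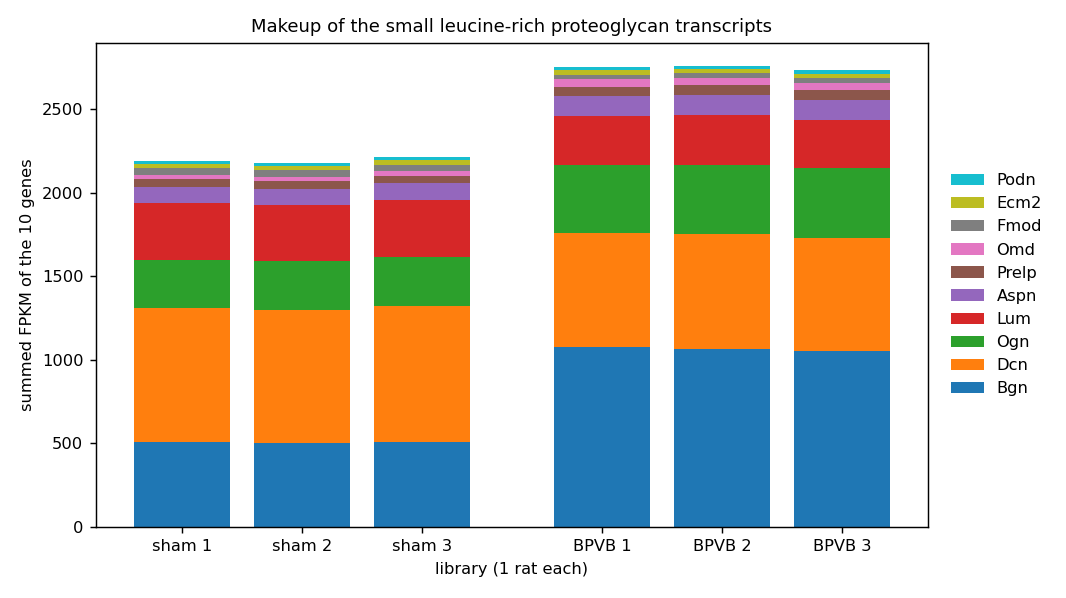
Summed FPKM of the 10 SLRP genes in each of the 6 libraries, stacked by gene. The Bgn layer is a little thicker than the Dcn and Lum layers together in the BPVB rats and is thinner than the Dcn layer in the sham rats, while the sum of the other 9 layers is nearly the same in both groups.

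Neighbouring SLRP genes moved the same way at some places and opposite ways at others. On chromosome 7 both Dcn and Lum fell, while the gene before them, Btg1, did not pass the test (log2 fold change 0.08, limma adjusted p = 0.11). On chromosome 13 Prelp rose and Fmod, the next gene, fell. Atp2b4, which comes before Optc and Prelp, was lower as well (log2 fold change -0.14, limma adjusted p = 0.028). Btg2, which follows Fmod and encodes an antiproliferative protein, had an FPKM of 64.8, 66.4 and 66.3 in the BPVB rats and of 136, 129 and 130 in the sham rats (log2 fold change -0.99, SE 0.032, limma adjusted p = 1.2e-07). On chromosome 17 the genes in a row rose by 0.49 (Ogn), 0.89 (Omd) and 0.25 (Aspn) on the log2 scale, and Ecm2 had a value of 0.05. The genes to either side, Nol8 and Ippk, did not pass the test (log2 fold change -0.08 with adjusted p = 0.54 and 0.16 with adjusted p = 0.38, limma), whereas Rps12l8, beyond Ippk, was lower (-0.29, limma adjusted p = 0.011). Cenpp, a centromere protein gene, overlaps all 4 of these SLRP genes in RefSeq and was covered by only 65 to 169 fragments per library (log2 fold change 0.36, limma adjusted p = 0.20). RefSeq places a non-coding RNA gene over each of Dcn, Fmod and Prelp. The strand setting of the counting is not given in the sources used here, so reads of overlapping genes cannot be told apart.

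**Figure D3:**
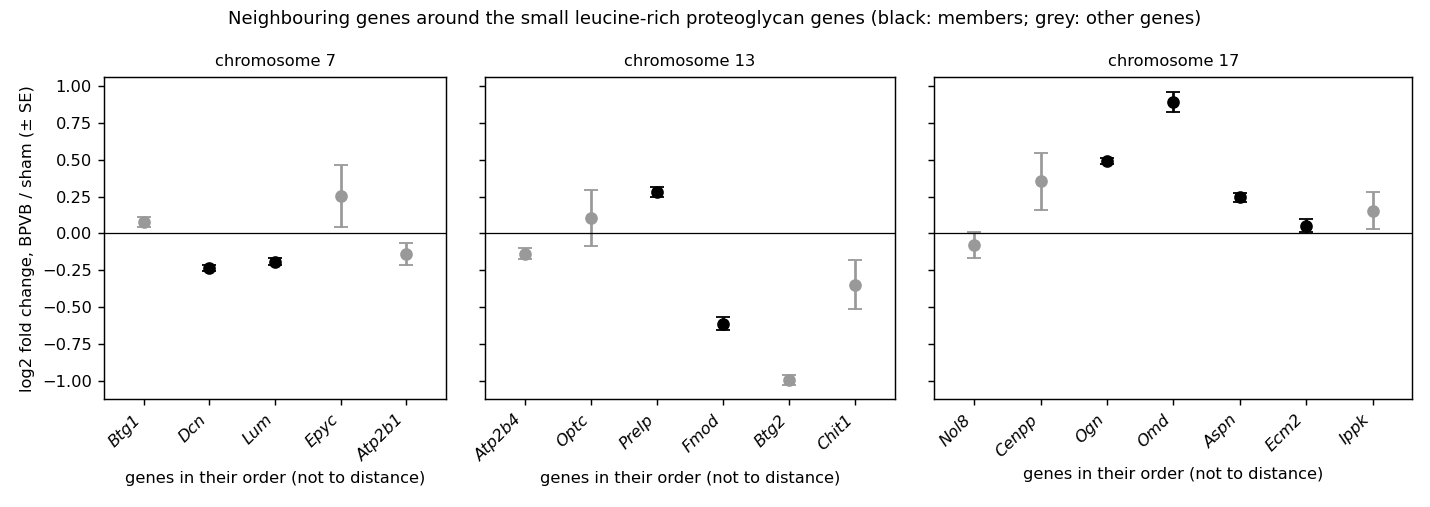
Log2 fold change (BPVB over sham, ± SE) of the SLRP genes (black) and of adjacent genes (grey) on chromosomes 7, 13 and 17, in gene order and not to distance. Dcn and Lum are both below 0, Prelp and Fmod lie on opposite sides of 0, and Ogn, Omd and Aspn are above 0 with Ecm2 near it.

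The SLRP genes were also set beside the genes whose values over the 6 libraries were most like theirs, measured as the Euclidean distance of log2(FPKM + 0.5) after centring each gene. For Bgn these were Flnc (filamin C, distance 0.068), Naaa (0.098) and Ccr2, a chemokine receptor of monocytes (0.10). For Omd they were Gng8 (0.083), Pbk (0.093) and C1s, a protease of the classical complement pathway (0.10). For Ogn they were Fblim1 (0.032) and Prnp (0.034). Prelp was closest to Usp24 (0.017), Gadd45a (0.025) and the gelatinase gene Mmp2 (0.028), and Aspn to Csnk2a1 (0.033), Zfp106 (0.034) and Fam53c (0.039). Among the SLRP genes that fell, Dcn was closest to Mocs2 (0.025) and Dctn5 (0.044), Lum to Pygm (0.030), LOC681367 (0.035) and Ccng1 (0.038), and Fmod to the transcription factor gene Klf9 (0.036), Hmcn1 (0.074) and Wipf3 (0.080). For these 8 SLRP genes, none of the 3 nearest genes was an SLRP gene, out of 12156 genes compared with each. With so few SLRP genes among so many, this count cannot show whether SLRP genes move together. The distance largely follows the group difference, with a log2 fold change of 1.08 for both Bgn and Flnc and 0.28 for both Prelp and Usp24. Ecm2 and Podn, which were not called, were not searched. In the GO terms of the deposited table, 8 of the 10 share extracellular space, 7 share extracellular matrix and 5 share collagen binding, a term held by 68 genes of the table.

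Of the 7 other genes of the family that were looked for, 6 were in the table and 5 were tested. Chondroadherin (Chad, class IV), a cartilage protein that binds integrins and collagen, had an FPKM of 103, 106 and 100.3 in the BPVB rats and of 67.9, 64.0 and 69.5 in the sham rats. It did not overlap between the groups and rose 1.54-fold (log2 fold change 0.62, SE 0.040, limma adjusted p = 6.7e-06). Epyc, Tsku, Optc and Nyx did not pass the test, with log2 fold changes from -0.08 for Nyx to 0.26 for Tsku, and Podnl1 was under the filter. Without BPVB rat 1, or with limma-voom, 2 of these genes were called higher in place of 1. The 10 cartilage marker genes in the table summed to 1.67 to 2.55 FPKM in the BPVB libraries and 2.27 to 2.63 in the sham libraries, and of the 4 tested, 1 was lower (Col9a3, log2 fold change -0.82, limma adjusted p = 0.0046) and 3 were not called.

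Most genes for the collagens that SLRPs bind were higher after banding. Changes of the listed genes are given on the log2 scale, and the count of each list stands against 17.2% of all genes called higher and 14.3% called lower. Of 12 genes for collagens bound by SLRPs, 9 were higher, 2 were lower and 1 was not called, beside a list median of 0.23 for the log2 fold change. Col3a1, the most abundant, rose by 0.21 (limma adjusted p = 2.9e-05), and Col12a1, a collagen of fibril surfaces, rose by 1.03 (limma adjusted p = 9.8e-06), whereas Col5a3 had a log2 fold change of -0.28 (limma adjusted p = 0.0074). Their summed FPKM was 6038 to 6113 in the BPVB libraries and 4991 to 5062 in the sham libraries. Of 8 collagen crosslinking enzymes, 4 were higher and 1 lower. Lox, which starts the crosslinks, had an FPKM of 80.1, 79.2 and 76.9 in the BPVB rats and of 38.8, 41.0 and 38.3 in the sham rats (log2 fold change 0.99, SE 0.039, limma adjusted p = 3.8e-07). The 1 lower gene, the lysyl hydroxylase gene Plod1 (log2 fold change -0.20, limma adjusted p = 0.022), was not called without BPVB rat 2, BPVB rat 3, sham rat 2 or sham rat 3, or with TPM scaling. With limma-voom, median-of-ratios scaling or quantile normalization, 2 of these enzymes were lower.

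The lists of enzymes that build the chains of SLRPs differed in how many genes were called, where 31.5% of all genes were called in either direction. None of the 7 genes for the linkage region between core protein and chain was called with limma, 1 had an unadjusted p under 0.05 and 0 were called with limma-voom, and B3gat3, the most abundant, had a log2 fold change of 0.10 (limma adjusted p = 0.25). Of 16 genes for chondroitin and dermatan sulfate chains, 3 were higher, 1 was lower and 12 were not called (median 0.02). The synthase gene Chsy1 rose by 0.37 (limma adjusted p = 0.0012) and the sulfotransferase gene Chst15 fell by 0.63 on the log2 scale (limma adjusted p = 0.0025). Only 1 of these genes was higher when BPVB rat 1, 2 or 3 or sham rat 3 was left out. Without BPVB rat 2, or with TPM scaling, 1 linkage gene was called higher. Of the 7 tested genes for keratan sulfate and for tyrosine sulfation, modifications of class II SLRPs, 3 were higher and 1 lower, with a median of -0.12. These were led by Chst2 (log2 fold change 0.46, limma adjusted p = 0.011) and B3gnt7 (-0.71, limma adjusted p = 0.0053).

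Of 11 genes in the list of SLRP ligands, 8 were higher and 3 were not called, beside a median of 0.42 for the log2 fold change. Of all genes, 17.2% were higher and 14.3% lower. C1qa, C1qb, C1qc, C1r and C1s, all among the 8, encode parts of the same complex, complement C1. Tgfb1 (log2 fold change 0.25, limma adjusted p = 0.010), Bmp4 and Ccn4 were the others. Tgfb2, Tgfb3 (0.09, limma adjusted p = 0.069) and Bmp2 were not called. The complement gene C1r (log2 fold change 0.52, limma adjusted p = 8.6e-06) and the matricellular gene Ccn4 (0.90, limma adjusted p = 0.00096) were the most abundant and the one with the largest rise. Of 14 receptors, 5 were higher and 1 lower, with a median of 0.16. Cd14, the co-receptor of the Toll-like receptors that bind biglycan, rose by 0.58 (limma adjusted p = 0.00051), and the integrin gene Itgb1, the most abundant, by 0.18 (limma adjusted p = 0.00045). The Toll-like receptor genes Tlr2 (log2 fold change 0.60, limma adjusted p = 0.053) and Tlr4 (-0.15, limma adjusted p = 0.28) were not called. P2rx7 (log2 fold change -0.38, limma adjusted p = 0.036) was the 1 lower gene and was not called without BPVB rat 1, BPVB rat 3, sham rat 1 or sham rat 3, without a filter on low expression, or with the replicate number as a block. Of 12 tested genes of SLRP processing, 8 were higher and 1 lower, with a median of 0.35. The list holds proteases that cut SLRPs or their propeptides, and Pcolce, a procollagen proteinase enhancer that is not itself a protease. Among the 8 were Pcolce (log2 fold change 0.34, limma adjusted p = 0.00028) and Mmp3, with a mean of only 0.46 against 0 FPKM. The macrophage elastase gene Mmp12 had an FPKM of 3.33, 3.21 and 3.87 in the BPVB rats and of 0.047, 0.19 and 0 in the sham rats (log2 fold change 2.79 on the log2(FPKM + 0.5) scale, limma adjusted p = 2.7e-06). Mmp2 rose by 0.29 (limma adjusted p = 4.1e-05), and Tll1 fell by 0.50 on the log2 scale (limma adjusted p = 0.010). In the list of 24 other tested proteoglycan and related matrix genes, 8 were higher and 10 lower, with a median of -0.13. Glypican 3 (Gpc3) rose by 1.34 (limma adjusted p = 9.5e-08), Smoc2 fell by 1.35 on the log2 scale (limma adjusted p = 1.8e-06), and the most abundant, the perlecan gene Hspg2, had a log2 fold change of -0.11 (limma adjusted p = 0.015). Leaving out BPVB rat 2 or sham rat 2 lowered the count of lower genes in this list from 10 to 6.

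**Figure D4:**
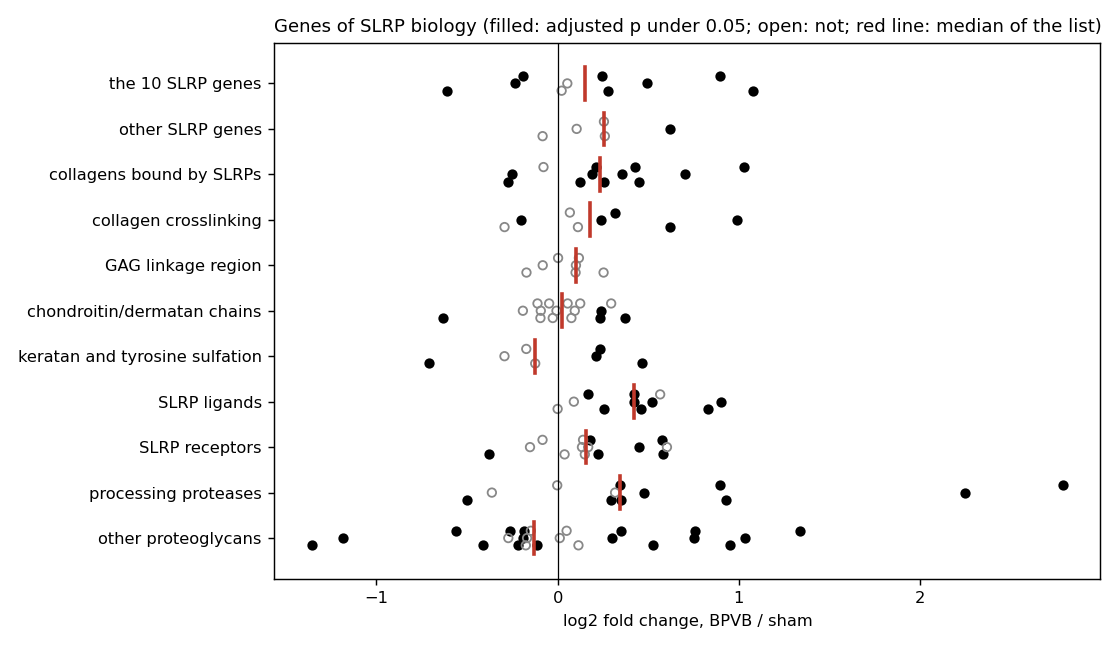
Log2 fold change (BPVB over sham) of each tested gene of the 10 SLRP genes, the other SLRP genes and the lists of SLRP biology, with filled points for an adjusted p under 0.05, open points for others and a red line at the median of each list. The SLRP genes spread to both sides of 0, the ligands and proteases lie mostly above it, and the enzymes of the linkage region and of the chains lie on both sides of it.

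Smooth muscle and heart muscle markers were present in every library, and markers of several cell types moved with the groups, where 17.2% of all genes were higher and 14.3% lower. Of 13 fibroblast markers, 7 were higher and 2 lower, and their summed FPKM was 2730 to 2792 in the BPVB libraries and 2650 to 2667 in the sham libraries. Pdgfrb rose by 0.62 (limma adjusted p = 4.9e-06) and Col15a1 fell by 0.63 on the log2 scale (limma adjusted p = 7.2e-07). Of 8 smooth muscle markers, 2 were higher and 4 lower, with sums of 5233 to 5284 and 5465 to 5504 FPKM. All 8 markers of the heart muscle sleeve were called, 2 higher and 6 lower (15488 to 15900 against 21295 to 21705 FPKM), and Tnni3 fell by 0.69 on the log2 scale (limma adjusted p = 9.9e-07). Of 10 alveolar epithelium markers, 9 were higher and 1 lower (659 to 713 against 134 to 139 FPKM), and Sftpc rose by 3.39 (limma adjusted p = 8.6e-10). Of 9 macrophage markers, 7 were higher and 2 were not called (643 to 667 against 193 to 201 FPKM), and Lyz2 rose by 1.86 (limma adjusted p = 1.4e-09). Of 9 endothelial markers, 6 were lower and 3 were not called (1106 to 1123 against 1252 to 1263 FPKM). Of 6 tested mesothelial markers, 1 was higher and 4 lower (8.01 to 10.2 against 9.75 to 12.1 FPKM). Of 3 tested markers each, 1 airway marker was higher, and among tendon markers 1 was higher and 1 lower. No gene of these lists was at 0 in all libraries. The part that these markers have in the differences of the SLRP genes was not tested.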

How the data were processed

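RNA-seq of PV tissue was available from 3 BPVB and 3 sham rats, with the group and number of each library taken from the labels. The authors deposited 1 FPKM value per gene and rat. The methods of the study name fastp, HISAT and HTSeq-count, whereas the submitters' processing notes name HISAT2 2.0.5, StringTie 1.3.3b, featureCounts 1.5.0-p3 and DESeq2 1.20.0. The library kit also differs between these sources, and the genome build, annotation and strand setting are not given in the sources used here. All columns with values of a library were used (0 were left out).

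Fragments behind the FPKM were recovered as whole numbers within 0.00001, and replicates differed beyond sampling noise on average over genes. This average need not hold for a single gene. The coefficient of variation of Omd, for example, was 0.59% in the BPVB group and 10.5% in the sham group. The groups were compared with limma 3.58.1 in R 4.3.3 (lmFit, eBayes with trend) on log2(FPKM + 0.5), keeping genes whose FPKM averaged 0.1 or more, with Benjamini-Hochberg adjustment. The main test was made on the deposited unit, and a model of the recovered fragments (limma-voom) was used as an alternative. Python 3.11.15, numpy 2.4.6, pandas 2.3.3, scipy 1.17.1 and matplotlib 3.10.9 were used for the other steps. The fit was tested on simulated data. Promoters are from RefSeq (GRCr8).

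The 10 genes and all lists were chosen with earlier results of these data known. Named are all 10 genes, the other family genes, for each list the called genes with the largest rise and fall and the gene with the highest level (mean FPKM of at least 1), and the 3 genes most like each called SLRP gene. Some genes that this rule names are not reported here. From the marker lists only some of these are printed. Btg2 and the other neighbours were named for their position, and Col9a3 as the 1 called cartilage marker. The 17 alternatives were other pseudocounts, filters, scalings and variance models, the replicate number as a block, limma-voom on the recovered fragments, and leaving out each of the 6 libraries.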

Additional observations from a re-analysis of the deposited data

How the results depend on the processing

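Over 17 alternatives, 168 of 170 values of the 10 SLRP genes kept their direction and their side of the threshold. The 2 others were both of Podn, which was not called in any fit: its log2 fold change was -0.0035 with median-of-ratios scaling and -0.039 without sham rat 3, in a range from -0.039 to 0.073 when each library was left out. The log2 fold change of Bgn ranged from 1.05 to 1.11, that of Omd from 0.82 to 0.97, that of Dcn from -0.26 to -0.20 and that of Lum from -0.22 to -0.15. The adjusted p depended on the variance model. With eBayes without trend, limma gave 0.00011 for Bgn, 0.013 for Aspn, 0.014 for Dcn and 0.027 for Lum. Over all genes, the number of higher and lower DEGs was 340 and 156, against 715 and 407 with limma-voom, 611 and 290 with a pseudocount of 0.1, and 98 lower with a pseudocount of 1. The cause was not tested. With the replicate number as a block, 2466 genes were higher and 2073 lower, and 5 and 3 SLRP genes. The numbers do not pair the rats (correlations of same-numbered libraries from 0.019 to 0.031). Of 300 list counts, made for all alternatives except robust eBayes and eBayes without trend, 26 moved by over 1.5 times. Scalings shifted the median of all genes by -0.04 to 0.03 on the log2 scale. With 3 rats per group, p-values measure the spread between these rats as moderated by a variance trend over all genes. For Bgn the SE was 0.020 with this trend and 0.045 without it. The number of rats limits the precision of each difference.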
